A study of Mus musculus with 8 samples.

Results

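Large clones of conventional T cells from mouse brain were described by their T cell receptor chains. They were selected on a measured value, their size: a clone was large when 5 or more cells of a library carried it. A cell was a cell barcode with exactly 1 productive beta chain (TRB) and 1 or 2 productive alpha chains (TRA), and cells of invariant natural killer T type, whose TRAV11 or TRAV11D segment is joined to TRAJ18, were left out. The rule gave 81 large clones of 3015 conventional clones, and 1158 of 4612 conventional cells, out of 6686 barcodes with a receptor chain. The remaining 2934 conventional clones, of 1 to 4 cells, are called other clones.

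CD45+ immune cells had been sorted from the brain parenchyma of C57BL/6 mice of 2 genotypes. The 5xFAD group carries transgenes for human amyloid precursor protein and presenilin with familial Alzheimer's disease mutations, driven in neurons. The 5xFAD;Cxcr6-/- group carries the same transgenes and lacks CXCR6, a chemokine receptor of tissue-resident T cells, so both groups have the amyloid model and there is no group without it. Each genotype has 2 receptor libraries. The labels do not say whether the libraries came from separate mice or from pools, nor give age or sex, so the p-values below measure only the spread between these libraries. The Cxcr6 genotype and the CD4 or CD8 lineage cannot be read from receptor chains, and expression data were not used here.

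Each T cell builds its receptor by joining a V, a D and a J segment for the beta chain and a V and a J segment for the alpha chain. Bases are trimmed and added without a template at the joints, and the joint lies in the third complementarity-determining region (CDR3), the loop that mostly contacts the peptide of the presented antigen. The nucleotides of the joint are therefore a tag of the founder cell, and a clone grows when such a cell divides. Cells that bind the same antigen can also carry separately made receptors with like CDR3s. The sequences of the largest clone of each library are shown first, as the receptors carried by the most cells. They run 5′ to 3′ from the codon of the conserved cysteine that opens the CDR3 to that of the conserved phenylalanine of the J segment. Capitals mark bases matched by neither the germline V end nor the germline J start of the GENCODE vM21 transcripts.

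5xFAD library 1, 189 cells, TRBV16-TRBJ2-1: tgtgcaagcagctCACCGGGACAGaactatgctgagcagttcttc
5xFAD library 1, 189 cells, TRAV9D-3-TRAJ22: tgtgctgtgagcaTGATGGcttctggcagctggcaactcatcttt
5xFAD library 2, 68 cells, TRBV12-2-TRBJ1-1: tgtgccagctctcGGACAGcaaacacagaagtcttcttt
5xFAD library 2, 68 cells, TRAV16D-DV11-TRAJ27: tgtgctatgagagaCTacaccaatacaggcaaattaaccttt
5xFAD;Cxcr6-/- library 1, 11 cells, TRBV12-2+TRBV13-2-TRBJ2-7: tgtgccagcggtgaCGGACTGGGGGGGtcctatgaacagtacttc
5xFAD;Cxcr6-/- library 1, 11 cells, first TRA, TRAV13N-1-TRAJ22: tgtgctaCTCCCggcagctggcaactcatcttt
5xFAD;Cxcr6-/- library 2, 26 cells, TRBV10-TRBJ2-7: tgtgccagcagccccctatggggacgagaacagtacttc
5xFAD;Cxcr6-/- library 2, 26 cells, TRAV10-TRAJ52: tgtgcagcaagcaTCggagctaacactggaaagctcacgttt

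The TRBV10 chain is in lower case throughout because its germline V end was not found: GENCODE annotates Trbv10 as a pseudogene, and 119 TRBV10 clones, 4 of them large, have no count of inserted bases. The label TRBV12-2+TRBV13-2 is kept as the files give it and was counted apart from TRBV12-2 and TRBV13-2. Its chains were matched to the germline of TRBV13-2. The 4 sequences of TRB share no V and J pair.

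Large clones were more numerous and held more of the cells in the 5xFAD libraries. The 5xFAD libraries had 24 and 41 large clones, and the 5xFAD;Cxcr6-/- libraries 6 and 10. They held 451 of 1314 conventional cells (34.3%, 95% Clopper-Pearson interval 31.8% to 37.0%) and 539 of 1727 cells (31.2%, 29.0% to 33.5%) in the 5xFAD libraries. The share was lower with 5xFAD;Cxcr6-/-, where they held 46 of 544 cells (8.46%, 6.26% to 11.1%) and 122 of 1027 cells (11.9%, 9.96% to 14.0%). The intervals cover counting error only. The genotypes did not overlap, with means of 32.8% ± 2.20 (SD, n = 2) and 10.2% ± 2.42. These are the values that chose the clones, so no test is given.

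Clone size depends on how many cells were sampled. At 544 cells in every library, the number in the smallest one, 27.8% and 19.1% of cells in 5xFAD libraries, and 8.46% and 9.77% in those of 5xFAD;Cxcr6-/- would be expected in large clones. The expected numbers of large clones were then 10.4, 11.1, 6 and 6.03. The difference of the genotype means, -22.6 percentage points as counted, was -14.3 points at equal depth.

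**Figure D1:**
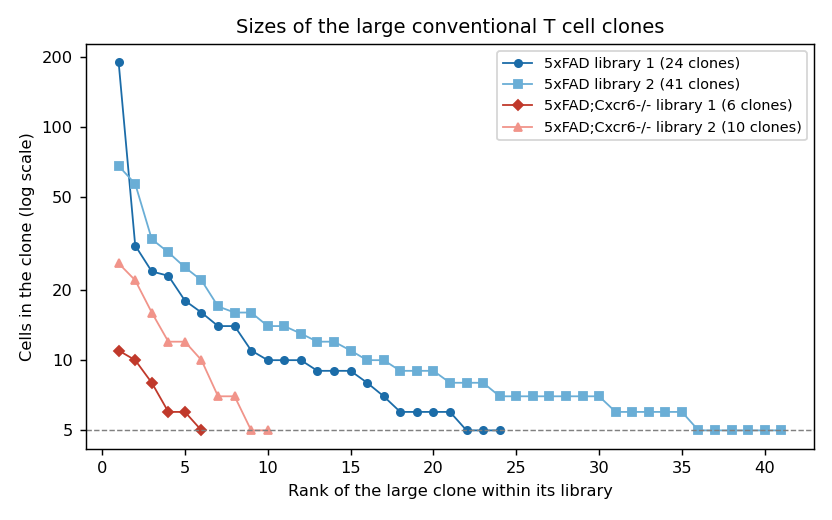
Cells in each large clone (log scale) against its rank within its library, with the dashed line at 5 cells. The largest clones hold 189, 68, 11 and 26 cells, and both 5xFAD curves lie above both 5xFAD;Cxcr6-/- curves at each rank they share.

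The top clones differed more between libraries than the typical large clone did. The 189-cell TRBV16 clone made up 41.9% of all cells in large clones of 5xFAD library 1. The largest clones of the other libraries made up 12.6%, 23.9% and 21.3%. The median size of a large clone was 9.5 and 8 cells in 5xFAD libraries, and 7 and 11 cells in those of 5xFAD;Cxcr6-/-, so the genotypes overlapped in this measure. Without the largest clone of each library the genotypes differed by -17.8 points.

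The size limit cut through a continuous distribution. The libraries held 3, 6, 1 and 2 clones of 5 cells, just inside it, and 10, 18, 9 and 8 clones of 4 cells, just outside, in the order 5xFAD library 1 and 2, then 5xFAD;Cxcr6-/- library 1 and 2. The 12 clones of 5 cells had a mean TRA CDR3 of 13.96 residues, and the 45 clones of 4 cells 13.3 residues. Their mean TRB CDR3 lengths were 14.2 and 13.98 residues.

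Barcodes with the TRB of a large clone nearly always had the same TRA. The deposited identifiers group cells by their chains, so the 1 TRB sequence of each of the 81 clones follows from the selection. Of the clones, 72 carried 1 TRA. Of 1165 barcodes with 1 TRB and 1 or 2 TRA that carried the TRB of a large clone, 1163 also carried that clone's TRA. The other 2 cells shared the TRB of the 68-cell TRBV12-2 clone of 5xFAD library 2 but had TRAV4D-4 joined to TRAJ12 in place of TRAV16D-DV11 joined to TRAJ27. A further 302 barcodes with the TRB of a large clone showed no TRA, and 53 showed a second TRB.

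The deposited clone identifiers split 1 receptor in 5xFAD library 2. A 12-cell and a 5-cell clone with TRBV16-TRBJ2-7 and TRAV16N-TRAJ27 had the same nucleotides in both chains. Joining clones by shared chains gave 80 large clones, and it added 3 cells to a 12-cell TRBV13-1 clone of 5xFAD;Cxcr6-/- library 2.

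Of the large clones, 9 had 2 alpha chains, which a T cell can hold because both TRA alleles may rearrange. Both chains were seen in 51 of their 69 cells. The clearest was the 11-cell clone of 5xFAD;Cxcr6-/- library 1, with both TRAV13N-1 and TRAV2 joined to TRAJ22, in 10 of 11 cells. The least clear was a 6-cell TRBV14 clone of 5xFAD library 1, with both in 1 cell. Clones in which most cells had 2 TRA were 4.17% and 12.2% of large clones in 5xFAD libraries, and 16.7% and 10% in those of 5xFAD;Cxcr6-/-. Among other clones the shares were 11.7%, 9.25%, 10.1% and 8.46%, and large and other clones did not differ beyond the spread of the libraries (0.87 percentage points higher in large clones, SD 5.99, exact two-sided sign-flip test over 4 libraries, p = 0.75).

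The exclusion of cells with 2 TRB touched 1 large clone above all. In 5xFAD;Cxcr6-/- library 1 a TRBV17-TRBJ2-7 chain was present in 51 barcodes, of which 47 had a TRA, in all 47 the same TRAV6N-7-TRAJ17 chain. Only 10 of them had a single TRB and were counted. The other 37 also carried a second TRB of TRBV23 joined to TRBJ1-1 with a CDR3 of 6 residues, and it was the same chain in all 37 and in no other barcode of the library. That second chain had 7.70 UMIs per cell on average, against 23.9 for the TRBV17 chain in the same barcodes. The clone was looked at after its values were seen.

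With barcodes of 2 TRB kept, this clone held 47 cells and was the largest of its library. Large clones then held 14.6% of cells in 5xFAD;Cxcr6-/- library 1, against 12.5% in the other library of that genotype and 33.2% and 30.8% in the 5xFAD libraries. Among the 81 large clones 15 had any barcode with a second TRB, and in 2 of them the same second TRB was in 2 or more barcodes. No doublet caller was run.

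**Figure D2:**
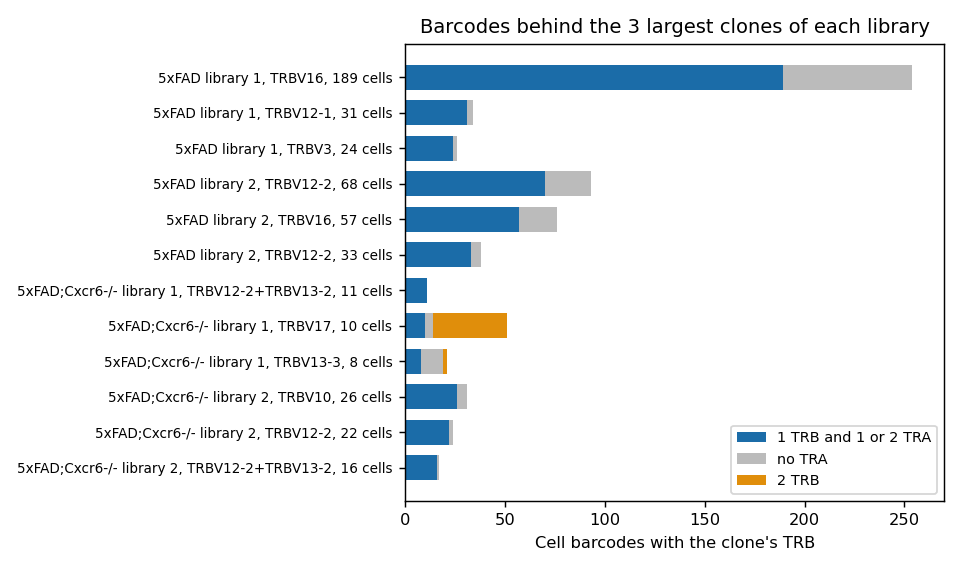
Cell barcodes that carry the TRB of the 3 largest clones of each library, split by the chains found with it. The TRBV17 clone of 5xFAD;Cxcr6-/- library 1 has 10 barcodes with 1 TRB and a TRA and 37 with 2 TRB, while most barcodes of the other 11 clones, except the TRBV13-3 clone of that library, have 1 TRB and a TRA.

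Large clones used many beta segments, with none dominating. Of 22 TRBV labels in the libraries, with TRBV12-2+TRBV13-2 counted as its own, 17 occurred in large clones. TRBV19 and TRBV3 were used by 9 large clones each, TRBV16 by 8, and TRBV12-1 and TRBV12-2 by 7 each. At the shares of the other clones of each library, 6.66, 6.64, 5.42, 4.48 and 4.04 large clones would have used them. On GRCm38 these genes lie on chromosome 6, each with 2 exons on the plus strand: TRBV3 at chr6:41048290-41048828, TRBV16 at chr6:41151740-41152230 and TRBV19 at chr6:41178375-41179048.

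Like TRBV29, which had 5 large clones, TRBV16 was in large clones of all 4 libraries. It was in 8.33% and 9.76% of large clones in 5xFAD libraries, and in 16.7% and 10% in those of 5xFAD;Cxcr6-/-, and in 6.19%, 7.38%, 5.88% and 5.60% of other clones. The share was thus higher in large clones in every library, but it rests on 2, 4, 1 and 1 clones, and 2 of the 4 are the split receptor. With that receptor counted once, 5xFAD library 2 had TRBV16 in 3 of 40 large clones (7.5%), close to its share of other clones. The clone number gave a log2 difference of 0.56 (SE 0.59), with an adjusted p of 0.713 (quasi-likelihood test of edgeR, adjusted after Benjamini and Hochberg).

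Across the 150 V and J segments tested in large against other clones, edgeR called 0% (0 segments at an adjusted p under 0.05). By unadjusted p under 0.05 there were 7 segments. DESeq2 also called 0, with 2 segments under that unadjusted p, and edgeR with TMM scaling called 0, with 26. The counts are small, so a difference in the use of a segment was not detectable at this number of clones unless it was large.

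TRBJ2-1 and TRAJ52 had the smallest p-values among the segments more frequent in large clones. TRBJ2-1 (chr6:41542754-41542803, 1 exon) was used by 16 large clones (19.8%) and 324 other clones (11.0%). Its shares of large clones were 20.8%, 17.1%, 16.7% and 30%, against 11.6%, 11.0%, 7.76% and 12.3% of other clones, higher in large clones in 4 of 4 libraries. The log2 difference was 0.83 (SE 0.41) with an adjusted p of 0.698 by edgeR's quasi-likelihood test, and with TMM scaling it was -0.12, in the opposite direction.

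TRAJ52 (chr14:54165316-54165381 on GRCm38) was in 5 large clones and 55 other clones. It was in 1 large clone of each library but 5xFAD;Cxcr6-/- library 2, where it was in 2, among them the 26-cell TRAV10 clone shown above. The log2 difference was 1.69 (SE 0.80) with the same adjusted p of 0.698 by edgeR. It was 0.74 with TMM scaling, 1.05 with clones of 3 or more cells counted as large and 1.08 without 5xFAD;Cxcr6-/- library 2.

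TRBV2 and TRBV20 had the smallest p-values in the other direction. They were in 114 and 92 other clones (3.89% and 3.14%) and in 0 of 81 large clones, which allows a share of up to 3.70%. At the shares of the other clones 3.05 and 2.54 large clones would have used them. The limit is just below the share of TRBV2 in other clones and above that of TRBV20. Neither passed the test (edgeR adjusted p = 0.698 for both). TRBV2 also had the fewest TRB UMIs per cell of all TRBV segments, 4.90 on average in other clones.

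**Figure D3:**
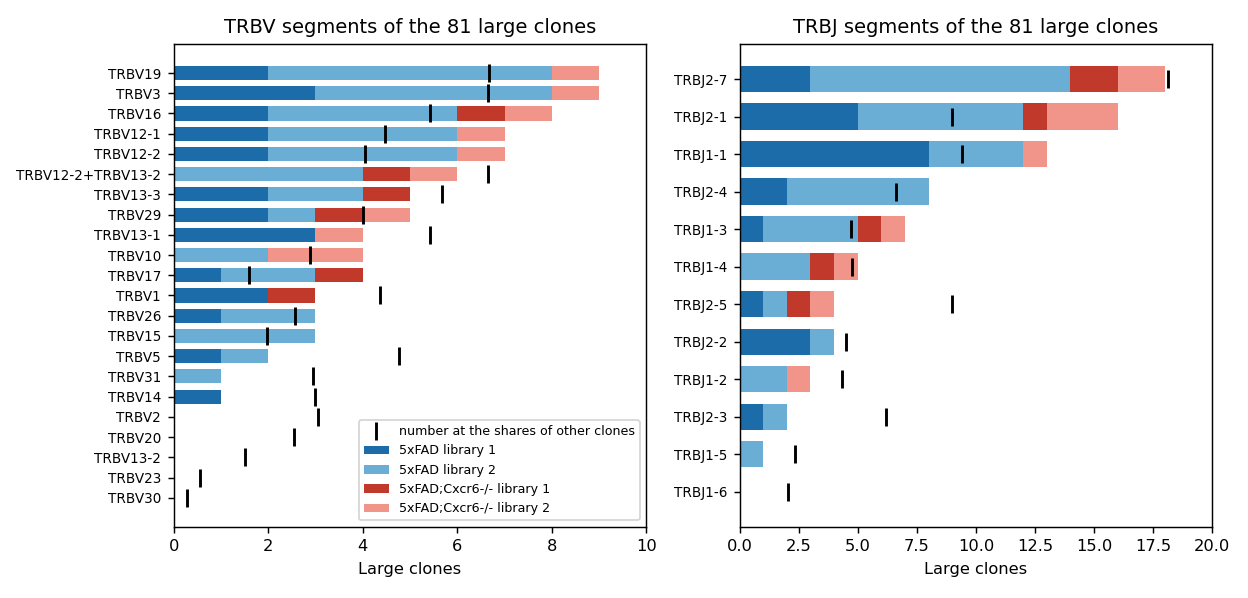
Large clones per TRBV segment (left) and TRBJ segment (right), stacked by library, with a black mark at the number given by the shares of other clones in each library. TRBJ2-1 has 16 large clones against a mark at 8.99, TRBJ2-7 has 18 against 18.1, and TRBV2 and TRBV20 have 0.

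TRBJ2-7, the most frequent J segment, was used by 18 large clones (22.2%) and 647 other clones (22.1%). Both clones of the split receptor are among the 18. TRBJ1-1 was used by 13 large clones, of which 8 were in 5xFAD library 1, where it was in 33.3% of large and 11.2% of other clones. In 5xFAD;Cxcr6-/- library 1 no large clone used it. Between the genotypes only TRBJ1-1, TRBJ2-1 and TRBJ2-7 had the 10 large clones needed for the test. None was called (0% of 3, edgeR), 0 had an unadjusted p under 0.05 by edgeR or DESeq2, and the log2 differences of 5xFAD;Cxcr6-/- against 5xFAD were -1.67 (SE 1.9), 0.43 (SE 0.80) and 0.21 (SE 0.71), with an adjusted p of 0.795 each.

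The alpha segments were spread more widely, over 41 of 88 TRAV and 37 of 43 TRAJ segments. TRAV10 and TRAV16 were in 5 large clones each, while 60 and 59 other clones had them. TRAV6-6, TRAV16N, TRAV3D-3, TRAV6-7-DV9, TRAV14D-1 and TRAV12-1 were in 4 each. Many TRAV genes have near-identical copies in C57BL/6 mice, and the assignment of a chain to 1 copy is uncertain. TRAJ22 was in 8 large clones, among them the 189-cell clone, TRAJ27 in 6 and TRAJ49 in 5. Both clones of the split receptor are among those counted for TRAV16N and TRAJ27. TRAJ22 was in 8.33% and 4.88% of large clones in 5xFAD libraries, and in 16.7% and 30% in those of 5xFAD;Cxcr6-/-, against 6.59% to 7.54% of other clones. The large clones of the 5xFAD;Cxcr6-/- libraries with TRAJ22 number 1 and 3, and TRAJ22 did not have the 10 large clones needed for the genotype test.

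Pairs of V segments were mostly held by a single large clone. Of 77 TRAV with TRBV pairs, 66 occurred once, 9 in 2 large clones and 2 in 3. TRAV10 with TRBV12-1 was in 3 large clones of 9, 5 and 7 cells and in 2 other clones. TRAV16N with TRBV16 was in large clones of 12, 5 and 10 cells and in 9 other clones, and the first 2 of these are the split receptor described above. Both pairs occurred in 5xFAD library 2 and in 5xFAD;Cxcr6-/- library 2. No large clone had the TRAV1-TRAJ33 alpha chain of mucosal-associated invariant T cells, which was present in 8 other clones.

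The TRA CDR3 was longer in large clones in each of the 4 libraries. The mean lengths in large clones were 14.4 and 13.8 residues in 5xFAD libraries, and 14.1 and 13.9 in those of 5xFAD;Cxcr6-/-, against 13.6, 13.7, 13.7 and 13.7 in other clones. The mean difference was 0.37 residues (SD 0.26, n = 4 libraries, exact two-sided sign-flip test, p = 0.125, adjusted over 10 features 0.625). With 4 libraries 0.125 is the smallest p possible, so the test cannot reach 0.05. The difference was 0.73 residues in 5xFAD library 1 and 0.13 to 0.38 in the other libraries. With clones of 3 or more cells counted as large it was 0.17.

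The TRA bases were split by their match to the germline. Large clones had on average 0.61 more TRA bases matching the V end and 0.65 more matching the J start, both higher in 4 of 4 libraries, and 0.17 fewer inserted bases. Inserted bases were fewer in 3 of 4 libraries. In 5xFAD library 1, which had the largest difference in length, large clones had 0.54 more. A TRA CDR3 of 15 or more residues was carried by 12 of 24 large clones in 5xFAD library 1 (50%) and 13 of 41 in 5xFAD library 2 (31.7%), against 24.2% and 25.9% of other clones. In the 5xFAD;Cxcr6-/- libraries it was carried by 1 of 6 and 4 of 10 large clones, against 23.8% and 22.6% of other clones, so this share was higher in large clones in 3 of 4 libraries.

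The middle of the TRB CDR3, without the 3 residues at each end, was less hydrophilic in large clones. Mean hydrophobicity on the Kyte-Doolittle scale, where higher is more hydrophobic, was -1.14 and -1.16 in large clones with 5xFAD, and -0.78 and -1.27 in those with 5xFAD;Cxcr6-/-. Other clones had -1.24, -1.26, -1.29 and -1.31. The difference of 0.19 (SD 0.21, n = 4) was positive in 4 of 4 libraries (exact two-sided sign-flip test, p = 0.125, adjusted 0.625). The largest difference, 0.51, came from the 6 large clones of 5xFAD;Cxcr6-/- library 1, and without that library the mean was 0.08. Clones of 2 to 4 cells alone had -1.26 and -1.08 with 5xFAD, and -1.22 and -1.28 with 5xFAD;Cxcr6-/-. In 5xFAD library 2 they were thus less hydrophilic than the large clones, and in 5xFAD;Cxcr6-/- library 2 nearly equal to them. At the size limit, clones of 5 cells had -1.04 and clones of 4 cells -1.06.

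Leucine, a hydrophobic residue, made up 5.44%, 6.55%, 7.98% and 6.15% of residues per clone in large clones and 4.61%, 4.46%, 4.69% and 4.03% in other clones. Isoleucine, also hydrophobic, went the other way, 0.33% in large and 0.93% in other clones, lower in 4 of 4 libraries. Aspartate, an acidic residue, was lower in large clones in 4 of 4 libraries, with means of 5.18% and 7.29%. Glutamate, also acidic, went the other way from aspartate, 10.9% in large and 9.32% in other clones, higher in 3 of 4 libraries. The 20 residues were looked at together and these were picked after their values were seen, so no test is given. The net charge, counted from lysine, arginine, aspartate and glutamate, was -0.73 in large and -0.75 in other clones (exact sign-flip test, p = 0.75).

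TRB inserted bases, the bases between the germline V end and J start including the D segment, differed in sign between the genotypes. Large clones had 9.17 and 9.10 inserted bases in the 5xFAD libraries, below the 10.1 and 9.69 of other clones. In the 5xFAD;Cxcr6-/- libraries they had 10 and 10.6, above the 9.80 and 9.80 of other clones. Over all 4 libraries the difference was -0.11 bases (SD 0.78, exact two-sided sign-flip test, p = 0.875). Large clones of the 2 genotypes did not overlap in the library means, 10.3 ± 0.44 against 9.13 ± 0.045 (SD, n = 2 each), but 2 libraries against 2 cannot give an exact permutation p below 0.333, and this was the value found (adjusted 0.667). With clones of 3 or more cells counted as large, the genotype difference turned from 1.18 to -0.44 bases, and at equal depth it was 0.42.

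**Figure D4:**
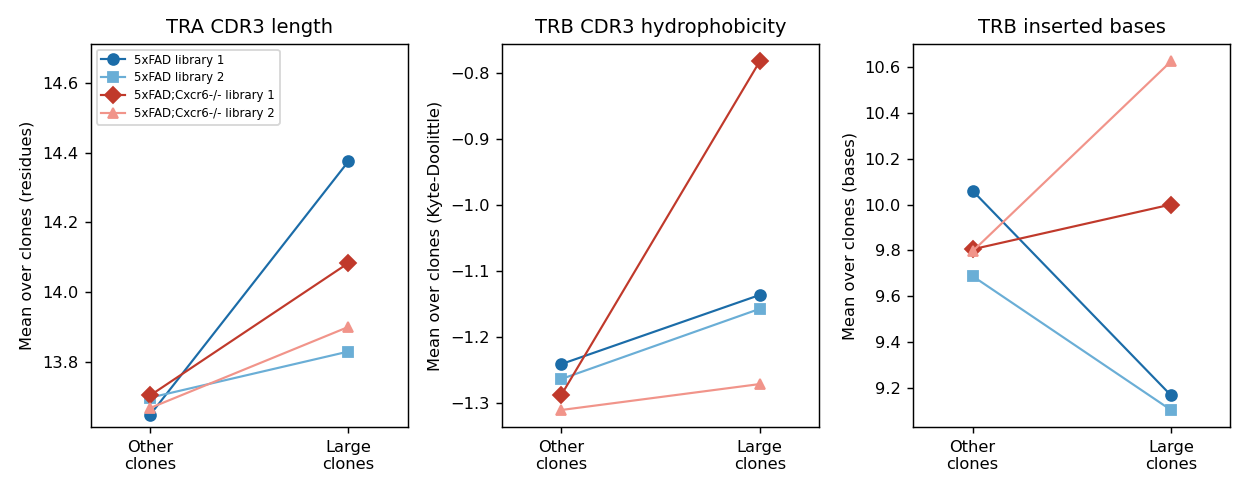
Library means over other clones and over large clones for TRA CDR3 length (residues), TRB CDR3 hydrophobicity (Kyte-Doolittle scale) and TRB inserted bases, with 1 line per library. The first 2 measures are higher in large clones in all 4 libraries, and TRB inserted bases are lower in both 5xFAD libraries and higher in both 5xFAD;Cxcr6-/- libraries.

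The number of inserted TRB bases ranged widely among the 77 large clones with a germline match, from 2 to 22 with a median of 9. The extremes of this count, which includes the bases of the D segment, are shown. The fewest, 2 inserted bases, were present in a 5-cell TRBV12-2-TRBJ2-7 clone of 5xFAD library 2. The most, 22, were present in a 9-cell TRBV1-TRBJ1-1 clone of 5xFAD library 1. In the TRBV12-2 clone, 7 barcodes with a single TRB carried its TRB and its TRA, but only 5 were counted. The uncounted ones were left out because they also carried the invariant TRAV11 or TRAV11D chain joined to TRAJ18. All 8 barcodes with this TRB had the clone's TRA and the same deposited clone identifier. The clone therefore counts as conventional only by its cells in which the invariant chain was not found.
Fewest inserted bases, 5 cells: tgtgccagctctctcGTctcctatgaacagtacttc
Most inserted bases, 9 cells: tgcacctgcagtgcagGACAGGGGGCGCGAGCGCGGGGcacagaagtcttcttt

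Of the large clones, 13 had a TRA without any inserted base. TRA inserted bases averaged 2.70 in large and 2.86 in other clones (exact sign-flip test, p = 0.5). Within large clones they were 3.38 and 2.72 in 5xFAD libraries, and 2.5 and 2.2 in those of 5xFAD;Cxcr6-/-, which did not overlap (difference -0.70, exact permutation p = 0.333, the smallest possible). With clones of 3 or more cells counted as large it turned to 0.46. The TRB CDR3 of large clones was 11 to 18 residues long with a median of 14, and its mean length of 14.1 residues compared with 13.9 in other clones (difference 0.21, SD 0.31, exact sign-flip test, p = 0.375).

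Large clones had like TRB chains in other libraries about as often as other clones. A similar TRB had the same V and J segment and a CDR3 of the same length with at most 1 different residue. Of the 81 large clones 6 (7.41%) had a similar TRB in another library, and of the 2934 other clones 213 (7.26%). The mean difference over libraries was -1.93 percentage points (SD 8.22, exact two-sided sign-flip test, p = 0.75). All 6 were in 5xFAD libraries, 16.7% of the large clones of library 1 and 4.88% of library 2. In the 5xFAD;Cxcr6-/- libraries 0 of 16 had one, which allows up to 18.8%, and the exact permutation p for the genotypes was 0.333, the smallest possible. The same TRB CDR3 was present in another library for 2 large and 24 other clones.

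The group with most libraries was a TRBV3-TRBJ1-3 set of 7 clones with CDR3s of 15 residues, found in all 4 libraries. Its members differ from each other at most at position 5, counted from 1 at the cysteine that opens the CDR3. At this position 5 different residues occur, and all members have a glycine followed by 2 arginines after it. They are shown to let the codons be compared. A further single-cell clone of 5xFAD library 1 was also similar to the 11-cell clone, with a lysine for an arginine at position 8, and is not in this set. The large clones among them are the first 2.
5xFAD library 1, 11 cells, TRAV7-5-TRAJ37: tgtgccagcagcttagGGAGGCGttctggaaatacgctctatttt
5xFAD library 2, 6 cells, TRAV14D-1-TRAJ32: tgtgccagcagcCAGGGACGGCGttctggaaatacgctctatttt
5xFAD library 1, 3 cells, TRAV12-3-TRAJ32: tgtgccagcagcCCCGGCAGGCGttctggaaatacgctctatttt
5xFAD library 2, 1 cell, TRAV6-7-DV9-TRAJ53: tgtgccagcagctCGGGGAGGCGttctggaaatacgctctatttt
5xFAD;Cxcr6-/- library 1, 1 cell, TRAV6-7-DV9-TRAJ32: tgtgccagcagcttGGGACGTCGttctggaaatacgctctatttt
5xFAD;Cxcr6-/- library 2, 1 cell, TRAV4-4-DV10-TRAJ47: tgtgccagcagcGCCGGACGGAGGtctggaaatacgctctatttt
5xFAD;Cxcr6-/- library 2, 1 cell, TRAV9-4-TRAJ43: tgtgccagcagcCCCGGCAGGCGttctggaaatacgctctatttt

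The 7 clones had 6 different TRB nucleotide sequences and 7 different alpha chains, with 6 TRAV and 5 TRAJ segments. The 3-cell clone of 5xFAD library 1 and 1 single-cell clone of 5xFAD;Cxcr6-/- library 2 had the same TRB nucleotides with different alpha chains. Over all TRBV segments the glycine-arginine-arginine run was in the TRB CDR3 of 4 of 81 large and 15 of 2934 other clones. The large clones with it were 1 of 24 and 3 of 41 in the 5xFAD libraries and 0 of 6 and 0 of 10 in the 5xFAD;Cxcr6-/- libraries. The run was chosen after its values were seen.

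Likeness in both chains was rarer. Between libraries 12 pairs of clones were similar in TRB and TRA, and 2 of their 22 clones were large. The first was an 18-cell TRBV29-TRBJ2-3 clone of 5xFAD library 1. A 3-cell clone of the same library encoded the same residues in both chains with 2 different bases in the TRB CDR3, and a single-cell clone of 5xFAD library 2 had the same TRA nucleotides and 1 different TRB residue. All 3 used TRAV3D-3-TRAJ22 and are shown because their few inserted bases let the nucleotide differences be seen.
5xFAD library 1, 18 cells, TRB: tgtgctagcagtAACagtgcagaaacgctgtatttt
5xFAD library 1, 3 cells, TRB: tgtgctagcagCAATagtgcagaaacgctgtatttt
5xFAD library 2, 1 cell, TRB: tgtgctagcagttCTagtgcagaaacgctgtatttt
5xFAD library 1, 18 cells, TRA: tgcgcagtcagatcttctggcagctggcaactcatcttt
5xFAD library 1, 3 cells, TRA: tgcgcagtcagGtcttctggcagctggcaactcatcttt

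The second was a 7-cell TRBV19-TRBJ2-7 clone of 5xFAD library 1 with TRAV6-7-DV9-TRAJ53. A single-cell clone of the same library and one of 5xFAD;Cxcr6-/- library 2 used the same 4 segments and differed at 1 residue of each chain. Its TRB nucleotides were also present in a 2-cell clone of 5xFAD;Cxcr6-/- library 2 with TRAV13-1-TRAJ57. The 3 clones with the same segments carry different inserted bases in both chains.
5xFAD library 1, 7 cells, TRB: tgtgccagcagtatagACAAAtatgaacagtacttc
5xFAD library 1, 1 cell, TRB: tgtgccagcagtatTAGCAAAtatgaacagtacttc
5xFAD;Cxcr6-/- library 2, 1 cell, TRB: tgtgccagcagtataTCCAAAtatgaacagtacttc
5xFAD library 1, 7 cells, TRA: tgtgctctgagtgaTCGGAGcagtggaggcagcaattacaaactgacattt
5xFAD library 1, 1 cell, TRA: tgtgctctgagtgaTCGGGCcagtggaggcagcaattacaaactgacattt
5xFAD;Cxcr6-/- library 2, 1 cell, TRA: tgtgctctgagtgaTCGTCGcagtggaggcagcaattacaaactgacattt

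Barcodes were checked for leakage between libraries. Only 28 barcodes occurred in 2 libraries, 10 of them in large clones, and 0 carried the same chain in both.

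The UMIs of a chain, the number of its RNA molecules counted, differed between V segments. Mean TRB UMIs per cell ran from 4.5 to 27.3 over the large clones, with a median of 10.1. Large clones with TRBV26 had 5.44 on average, those with TRBV12-1 7.55, those with TRBV15 18.6 and those with TRBV17 18.7. Other clones with these segments, pooled over the 4 libraries, had 8.81 for TRBV26, 9.18 for TRBV12-1, 22.6 for TRBV15 and 21.6 for TRBV17. The means of large clones rest on 3, 7, 3 and 4 clones in this order. The 3 with TRBV15 are all of 5xFAD library 2. These 4 segments were picked after their values were seen.

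Across the 81 large clones the TRB UMIs followed those of other clones with the same library and TRBV segment (Pearson r 0.69, Spearman rho 0.74, a description over clones that share libraries). The ratio of a large clone to such clones had a median of 0.90 and ranged from 0.53 to 1.79, and 27 clones were above 1. The 189-cell TRBV16 clone had 21.7 TRB UMIs and 3.49 TRA UMIs per cell. TRA UMIs ranged from 1.88 to 11.4, with a median of 4.58.

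**Figure D5:**
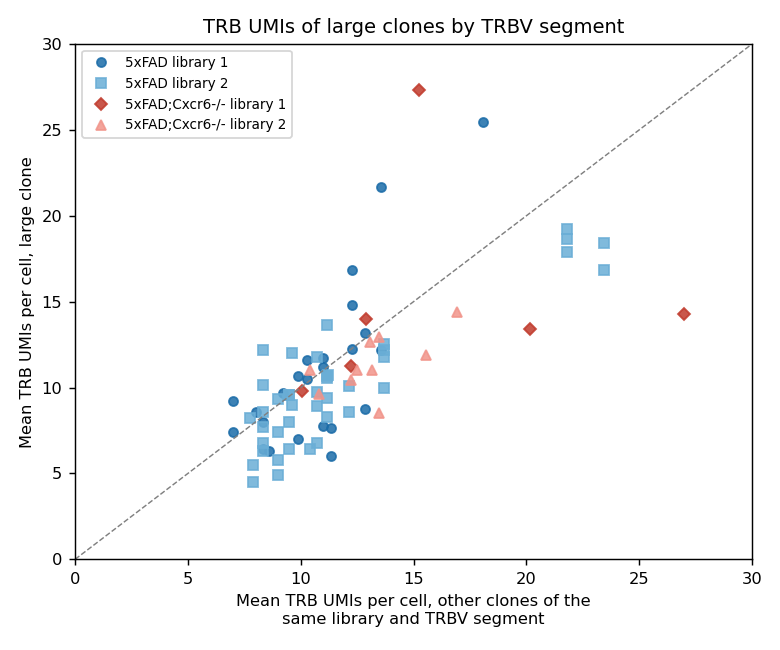
Mean TRB UMIs per cell of each large clone against the mean of the other clones with the same library and TRBV segment, with the dashed line at equality. Clones below the line outnumber the 27 above it.

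By library, large clones had means of 11.0 and 10.1 TRB UMIs in 5xFAD libraries, and 15.02 and 11.3 in those of 5xFAD;Cxcr6-/-. Other clones had 10.4, 10.6, 12.2 and 12.4, so the 5xFAD;Cxcr6-/- libraries were also higher outside the large clones. Large minus other clones averaged 0.50 UMIs (SD 1.70, exact two-sided sign-flip test, p = 0.75). The genotype difference in large clones was 2.60 UMIs without overlap (exact permutation p = 0.333, the smallest possible, adjusted 0.667). It was 0.76 without 5xFAD;Cxcr6-/- library 1, 4.44 without library 2 of that genotype and 0.27 with each cell counted once. For TRA UMIs, the large clones had 4.53, 5.03, 5.13 and 6.20, and the genotype difference was 0.89 (exact permutation p = 0.333). Without 5xFAD;Cxcr6-/- library 1 or library 2 it was 1.43 or 0.35. The part of the depth of the libraries and of the mix of TRBV segments in these differences was not tested.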

How the data were processed

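T cell receptor libraries of 4 samples, 2 per genotype, were made with the Chromium Single Cell Immune Profiling v2 kit, per the labels' protocols. The submitters' processing notes name Cell Ranger 6.0 and mm10, without settings. Each deposited table has 1 line per assembled contig with its read count and UMI count, not normalized. Libraries hold 13460 to 34772 UMIs.

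Clones are the deposited clonotype identifiers. Inserted bases are CDR3 bases outside the longest match to the V end and J start of GENCODE vM21 transcripts (GRCm38). Library means over clones, each clone counted once, were compared with exact two-sided tests, with Benjamini-Hochberg adjustment over 10 features. Clones per segment were tested with edgeR 4.0.16 (quasi-likelihood, library as a block for size, at least 10 clones in all, no scaling), with DESeq2 1.42.0 as an alternative. The expected share at equal depth is hypergeometric. The clone and segment code was tested on simulated data.

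The large clones, features and lists were chosen with earlier results of these data known. Named were segments that the test called, the 4 TRBV, 4 TRAV, 3 TRBJ and 3 TRAJ segments in most large clones with ties kept, the 2 of each direction with the smallest p, the 3 largest clones of each library, those with most and fewest inserted bases and those with like chains. Named outside this rule, after their values were seen, were the segments TRBV10, TRBV15, TRBV17, TRBV23, TRBV26 and TRBV29, the 6-cell TRBV14 clone and the 12-cell TRBV13-1 clone. The fold of TRBV2 and TRBV20 depends on the prior count and is not given.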

Additional observations from a re-analysis of the deposited data

Results flagged for a closer look

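TRB inserted bases, large minus other clones, went in opposite directions in the 2 genotypes. The differences were -0.89 and -0.58 bases in the 5xFAD libraries and 0.20 and 0.83 bases in the 5xFAD;Cxcr6-/- libraries, so that the mean of the second genotype was 1.25 bases higher. It was marked because every library of one genotype moved one way and every library of the other the opposite way. The feature was picked from the 10 compared after their values were seen, and no other one of them split this way. The difference between the genotypes was not tested. With clones of 3 or more cells counted as large, the genotype difference in TRB inserted bases of large clones turned from 1.18 to -0.44. The difference above rests on 6 and 8 large clones in the 5xFAD;Cxcr6-/- libraries.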

How the results depend on the processing

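The TRA CDR3 length and TRB hydrophobicity of large minus other clones kept their direction under every alternative run. TRA length gave 0.17 to 0.48 residues and hydrophobicity 0.08 to 0.24. The number of called segments was 0 under every alternative of both segment tests. Without 5xFAD library 2 the genotype segment test could not be fitted, since no segment had 10 large clones.

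The difference in the share of cells in large clones moved from -22.6 to -14.3 points at equal depth, -18.4 with 2 TRB kept and -17.8 without the largest clones. Other reversals follow, and the cause was not tested. With 3 or more barcodes, large minus other was 0.15 for TRA inserted bases, -0.18 for 2 TRA, -0.38 for TRB UMIs and 2.59 for similar TRB. The genotype difference there was 0.17 for TRA length, -0.44 for TRB inserted bases, 0.46 for TRA inserted bases, -0.045 for hydrophobicity and -0.39 for 2 TRA. The TRBJ segments gave -0.38 (TRBJ2-7) and 0.25 (TRBJ1-1). With 10 or more barcodes, TRB inserted bases were 0.15 in large minus other, and the genotype differences were -0.10 for TRB length and -0.047 for hydrophobicity. With exactly 1 TRA the genotype difference in TRA length was 0.015. At equal depth the genotype differences were -0.0031 for TRB length and 0.28 for TRA length, and large minus other was -3.98 for 2 TRA and -0.11 for TRA UMIs. With each cell counted once they were -0.057 (TRB length, genotype), -0.54 (2 TRA) and -0.12 (TRA UMIs). Without the largest clones they were 0.058 (TRA length, genotype), -2.89 (2 TRA, large minus other), -2.87 (2 TRA, genotype) and -0.011 (TRA UMIs). TMM scaling gave -0.12 for TRBJ2-1 in large against other clones and -0.11 for TRBJ2-7 between genotypes.

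Leaving out 1 library at a time, large minus other ran from -0.43 to 0.15 for TRB inserted bases, -0.097 to 0.14 for charge, -1.02 to 3.68 for 2 TRA, -0.27 to 1.01 for TRB UMIs, -5.89 to 0.094 for similar TRB and -0.12 to 0.28 for TRA UMIs. The genotype differences ran from -0.38 to 0.16 for TRA length, -0.028 to 0.57 for TRB length and -0.12 to 0.36 for hydrophobicity, and for TRBJ2-1 and TRBJ2-7 from -0.16 to 0.69 and -0.10 to 0.65.

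The replicate numbers come from the labels, which do not say that they pair the libraries. Same-numbered libraries did not deviate together over 106 segments of large clones (r = -0.053). With the replicate block the genotype differences were the same values, such as 1.18 for TRB inserted bases (exact p = 0.5, the smallest that 2 pairs allow), and 0 segments were called. The 6 and 10 large clones of the 5xFAD;Cxcr6-/- libraries limit every genotype comparison.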
